A study of Homo sapiens with 18 samples.

Results

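The neuroendocrine secretory granule genes are CHGA, CHGB, SCG2, SCG3, SCG5, CPE, PCSK1, SYP, INSM1 and NEUROD1, a list of 10 genes. They were read from probe sets that name exactly 1 gene, taking the probe set with the highest mean over the 18 lines where a gene had more than 1. Of the 10, 8 were measured in this way, among 19774 genes in all, and NEUROD1 and PCSK1 were not analysed here because no probe set was paired with them. Each of 18 cell lines labelled as colorectal cancer was measured on 1 microarray of biotin-labelled total RNA, as log2 intensities. NCIH716 was grown in RPMI-1640, as were COLO320HSR, MDST8, HCT116, LS513, KM12, SNUC1 and RCM1, and the lines in DMEM/F-12 were OUMS23, HUTU80, CL40, CAR1, SW1463, SW948, SW48, RKO, LS180 and HT55; the labels name no treatment. The question was which of these genes appear outside NCIH716, a line widely used as a model of hormone-secreting gut cells. With 1 array a line, differences between lines carry no replicate error and no test.

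Endocrine cells of the gut store peptide hormones in dense-core granules and release them on a stimulus. Granins are acidic proteins that aggregate in the trans-Golgi network and help form these granules, while prohormone convertases and carboxypeptidase E cut and trim the hormone precursors inside them. INSM1 and NEUROD1 are transcription factors of endocrine differentiation. In the colon, cells of this kind are a small minority of the epithelium, and pathologists use chromogranin A, synaptophysin and INSM1 as stains for neuroendocrine tumours.

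The sequences upstream of the start sites are shown for 4 members with different patterns over the lines: CHGA and SCG3, which were detected in NCIH716 alone, CPE, which was also high in several other lines, and SCG5, which was higher elsewhere than in NCIH716. They are the 250 bases before the start in RefSeq (GRCh38.p14), 5′ to 3′, and capitals mark matches to TGACG or its complement, the core of the cyclic AMP response element through which CREB factors act; the window of SCG3 holds none. The windows are chr14:92922900-92923149, plus strand, for CHGA, chr15:51681253-51681502, plus strand, for SCG3, chr4:165378758-165379007, plus strand, for CPE, and chr15:32641460-32641709, plus strand, for SCG5. The CHGA window lies inside the limits of the gene, which begins at 92922664. The start used for it is thus a later one. 
CHGA: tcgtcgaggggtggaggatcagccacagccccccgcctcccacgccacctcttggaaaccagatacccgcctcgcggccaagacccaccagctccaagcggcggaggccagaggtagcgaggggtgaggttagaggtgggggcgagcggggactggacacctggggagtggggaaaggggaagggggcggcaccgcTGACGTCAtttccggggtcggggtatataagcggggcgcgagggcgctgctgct
SCG3: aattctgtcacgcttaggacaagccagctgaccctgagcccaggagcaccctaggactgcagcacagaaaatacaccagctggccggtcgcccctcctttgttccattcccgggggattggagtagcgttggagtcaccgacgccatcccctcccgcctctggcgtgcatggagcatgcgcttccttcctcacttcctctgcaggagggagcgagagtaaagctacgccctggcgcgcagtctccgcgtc
CPE: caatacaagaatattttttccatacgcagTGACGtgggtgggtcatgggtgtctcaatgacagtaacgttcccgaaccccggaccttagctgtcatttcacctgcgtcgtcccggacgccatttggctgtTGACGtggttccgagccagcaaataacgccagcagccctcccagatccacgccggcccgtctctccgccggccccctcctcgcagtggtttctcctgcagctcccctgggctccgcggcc
SCG5: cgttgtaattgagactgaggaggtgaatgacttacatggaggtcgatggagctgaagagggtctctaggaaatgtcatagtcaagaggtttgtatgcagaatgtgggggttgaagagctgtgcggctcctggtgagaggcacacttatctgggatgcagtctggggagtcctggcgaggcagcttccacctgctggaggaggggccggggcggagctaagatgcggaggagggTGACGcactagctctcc
RefSeq promoters were matched for 5 of the 8 measured members, and those of CHGB, SCG2 and INSM1 were not. The core letters TGACG, searched on both strands, were found in 3 of these 5 (CHGA, SCG5 and CPE), against 26.0% of 15399 promoters of measured genes. The full element TGACGTCA, which contains that core on both strands, was found in CHGA, 54 bases before the start used for its window, and in 2.36% of all promoters. The E-box letters CAGNTG, a site type of basic helix-loop-helix factors, were found in 4 of 5 and in 40.0% of all promoters. The GC box GGGCGG was found in 3 of 5 and in 56.4%, and TATAAA and TTCAGCACC, the left part of the site of the repressor REST, in none of the 5 and in 8.36% and 0.266% of all promoters. These matches describe the windows and are not evidence of binding.

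A level of 3.90 log2 units, the 95th percentile of 54 probe sets of 44 genes chosen as restricted to other tissues, was taken as background, and 4.92, their 99th percentile, as the level above which a signal is called clear here. All 8 measured members exceeded 3.90 in NCIH716, and 7 exceeded 4.92; of all genes, 57.3% and 48.0% did so in that line. In the other 17 lines, 5 of 8 members exceeded 3.90 in at least 1 line, against 75.8% of all genes, and 3 exceeded 4.92, against 64.6% of all genes. Those 3 were SCG2, SCG5 and CPE. Of the 136 values of the 8 members in these lines, 21 were above 3.90 and 10 above 4.92.

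**Figure D1:**
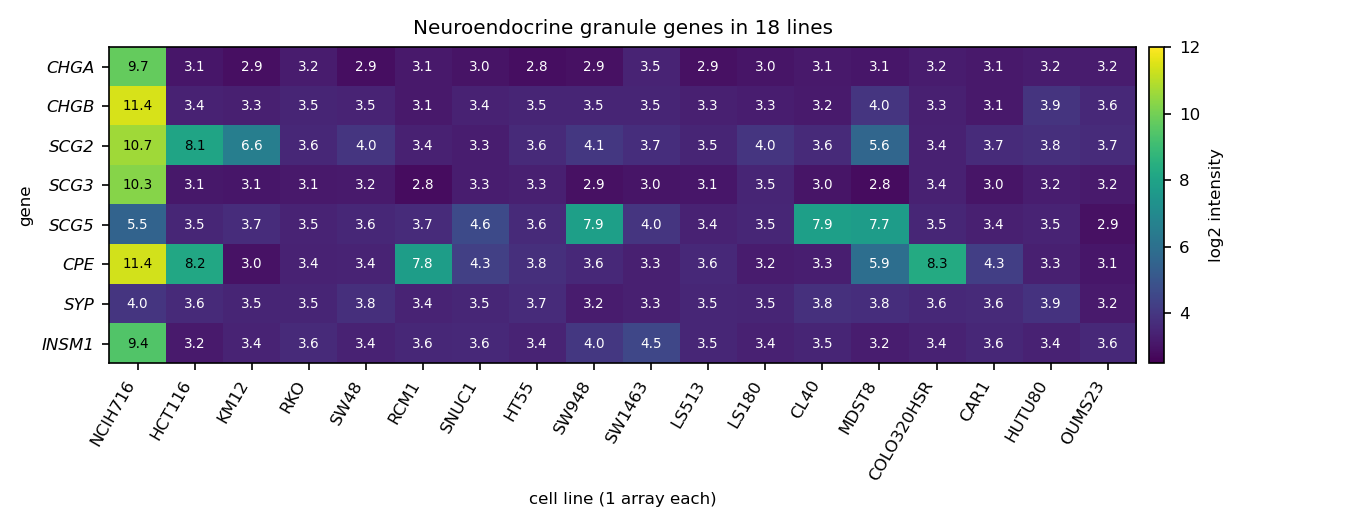
Log2 intensity of the 8 measured members (rows) in each of the 18 lines (columns, 1 array each, NCIH716 at the left), with the value printed in each cell and coloured from low (dark) to high (yellow). CHGA, CHGB, SCG3 and INSM1 are bright in NCIH716 alone, SCG2, CPE and SCG5 are bright in further lines, and SYP stays dark throughout.

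The differences from the rest of the panel were large for most members. In NCIH716, 6 of the 8 members lay at least 3 log2 units (8-fold) above the median of the other 17 lines, against 3.04% of the 15150 genes above background in at least 1 line. The median difference over the 8 members was 6.83 log2 units, and over all 15150 genes it was -0.03. A gap of at least 3 log2 units over every other line was met by 5 members (CHGA, CHGB, SCG3, INSM1 and CPE), against 0.607% of the genes. CPE passed that limit narrowly, with a gap of 3.05, and SCG2 missed it with a gap of 2.59. By their second probe sets CPE and INSM1 missed it. CPE was 10.14 in NCIH716 against 7.20 in COLO320HSR, and INSM1 was 5.67 against 3.23 in KM12. That probe set of INSM1 also lay only 2.74 above the median of the other lines, short of 3. These shares are descriptions, since the genes are known endocrine markers and were listed with the profile of NCIH716 in view.

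**Figure D2:**
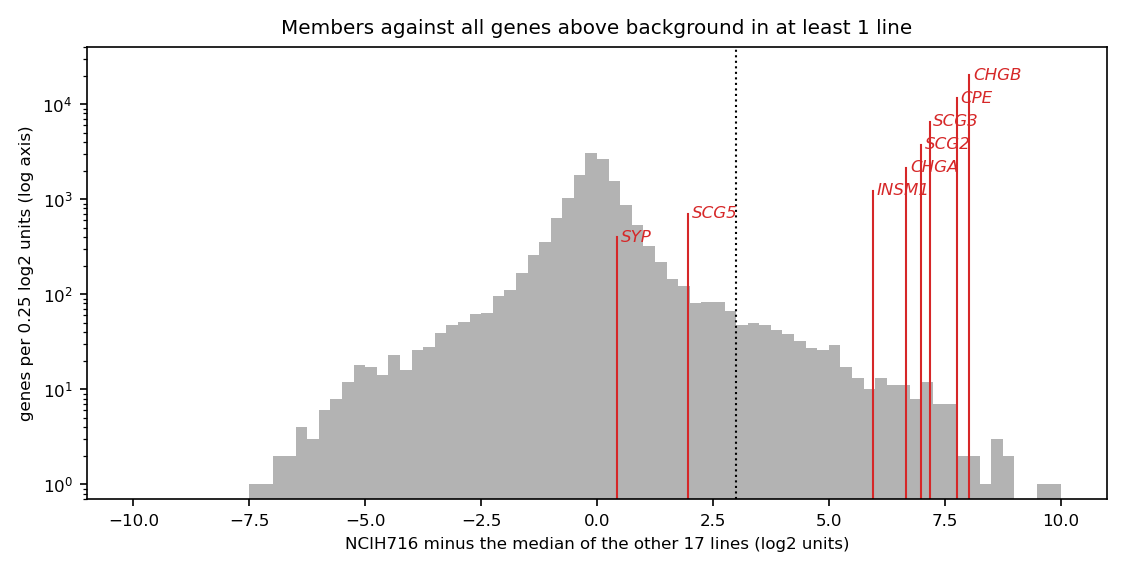
Number of genes (log axis) by the difference between NCIH716 and the median of the other 17 lines (log2 units, bins of 0.25) for the 15150 genes above background in at least 1 line; red lines, whose height carries no value, mark the 8 members and the dotted line a difference of 3. The 6 red lines from INSM1 at 5.95 to CHGB at 8.03 lie beyond the dotted line, and SYP (0.44) and SCG5 (1.97) lie before it.

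Among the granins, CHGA encodes chromogranin A, a precursor of several peptides and the usual serum marker of neuroendocrine tumours. It was 9.74 in NCIH716, and in the other 17 lines it ran from 2.85 in HT55 over a median of 3.07 to 3.46 in SW1463. No other line exceeded background, so that CHGA was at least 57.2-fold higher in NCIH716 when the other lines are set to the background level. The gene lies on chromosome 14 (GRCh38.p14, 92922664 to 92935285).

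CHGB, chromogranin B, lies on chromosome 20 (5911510 to 5925353). It was 11.44 in NCIH716, and 3.13 in RCM1, with a median of 3.41 and a highest value of 3.96 in MDST8, in the other lines. MDST8 and HUTU80 (3.93) were just above 3.90, by less than 0.38 log2 units, the median SD between 2 probe sets of the same gene on these arrays. NCIH716 stood 7.48 log2 units above the highest other line.

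SCG3, secretogranin III, which binds chromogranin A and tethers it to the cholesterol-rich granule membrane, lies on chromosome 15 (51681503 to 51721026). It was 10.27 in NCIH716, and 2.80 in MDST8, with a median of 3.10 and a highest value of 3.47 in LS180, in the other lines. No other line exceeded background, and SCG3 was at least 82.7-fold higher in NCIH716 on the same reckoning as CHGA. CHGA and SCG3 were the members, beside SYP, with no value over 3.90 outside NCIH716.

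SCG2, secretogranin II, the precursor of the neuropeptide secretoneurin, was present outside NCIH716. The gene lies on chromosome 2 (223596940 to 223602361). It was 10.66 in NCIH716, against 8.07 in HCT116, 6.56 in KM12 and 5.65 in MDST8. SW948 (4.06), SW48 (3.98) and LS180 (3.97) followed just above 3.90, closer to each other than 0.38, and the remaining 11 lines reached down to 3.26 in SNUC1. HCT116 and KM12 had no clear signal of CHGA, CHGB or SCG3: CHGA was 3.07 and 2.89, CHGB 3.39 and 3.32, and SCG3 3.10 and 3.07 in these lines.

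SCG5 encodes a small granule protein that acts as a chaperone of the prohormone convertase PCSK2, and lies on chromosome 15 (32641710 to 32697092). It was the 1 measured member that was not highest in NCIH716. It was 5.52 there, against 7.87 in SW948, 7.86 in CL40 and 7.74 in MDST8. These 3 lines lay within 0.38 log2 units of each other, and NCIH716 minus the highest of them was -2.35. SNUC1 (4.63) and SW1463 (3.96) were above 3.90 but not clear, and the other 12 lines lay at or below 3.69. SW948 and CL40 had no clear signal of any other member.

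CPE, the carboxypeptidase that removes basic residues from the ends of cut prohormones, lies on chromosome 4 (165379008 to 165498547). It was 11.35 in NCIH716, against 8.30 in COLO320HSR, 8.19 in HCT116, 7.79 in RCM1 and 5.95 in MDST8. COLO320HSR and HCT116 did not differ by more than 0.38 log2 units. SNUC1 (4.29) and CAR1 (4.25) were faint, and the lowest line was KM12 (2.97). A second probe set of CPE gave 10.14 in NCIH716, against 7.20 in COLO320HSR, 7.06 in HCT116, 7.02 in RCM1 and 5.54 in MDST8, and correlated with the first at r = 0.99 over the 17 lines without NCIH716.

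**Figure D3:**
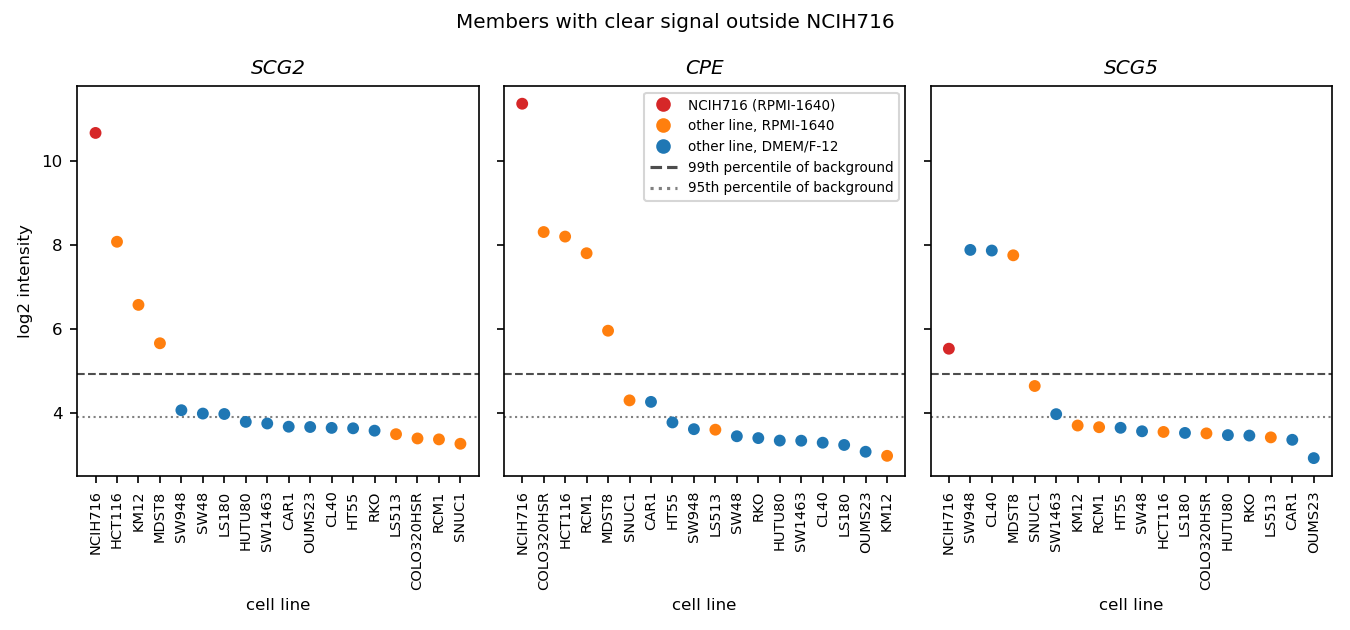
Log2 intensity of SCG2, CPE and SCG5 in each line (1 point per array), with NCIH716 at the left in red and the other lines in falling order, orange for RPMI-1640 and blue for DMEM/F-12; the dashed line is 4.92 and the dotted line 3.90. SCG2 is above the dashed line in 3 other lines, CPE in 4 and SCG5 in 3, and NCIH716 lies below the 3 highest lines for SCG5.

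SYP, synaptophysin, a membrane protein of synaptic and small endocrine vesicles, lies on the X chromosome (49187815 to 49200193). It was 3.96 in NCIH716, and 3.19 in OUMS23, with a median of 3.53 and a highest value of 3.89 in HUTU80, in the other lines. NCIH716 lay 0.07 log2 units above HUTU80, so no order can be read between them, and no clear signal was measured in any line. The array read SYP by 1 probe set, which limits what can be said of a transcript that this probe set may measure poorly.

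INSM1, a zinc-finger transcription factor used as a nuclear marker of neuroendocrine tumours, lies on chromosome 20 (20368104 to 20370949). It was 9.43 in NCIH716, and 3.19 in HCT116, with a median of 3.47 and a highest value of 4.52 in SW1463, in the other lines. SW1463 and SW948 (4.05) were above 3.90, but the second probe set of INSM1 was 2.93 and 2.71 in these lines, and 5.67 in NCIH716. INSM1 had no clear signal in any line but NCIH716 by either probe set.

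By line, MDST8 came next to NCIH716. It had a clear signal of 3 of 8 members (SCG2, SCG5 and CPE), against 7 of 8 in NCIH716; of all genes, 48.8% were above 4.92 in MDST8. HCT116 had 2 (SCG2 and CPE, 48.4% of all genes), and KM12 (47.0%), RCM1 (49.2%), SW948 (48.2%), CL40 (48.1%) and COLO320HSR (46.8%) had 1 each. The other 10 lines had none, although they had clear signals of a like share of all genes: 49.3% in CAR1, 48.4% in LS180, 48.3% in SW1463, 48.1% in SW48, 48.0% in HT55, 47.9% in LS513, 47.7% in SNUC1, 47.1% in OUMS23, 46.8% in RKO and 46.6% in HUTU80. Between lines, then, the number of members with a clear signal varied from 0 to 7 of 8 while the share of all genes varied little.

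CHGA, CHGB, SCG3 and INSM1 ran together over the panel when NCIH716 was included, whereas SCG5 and SYP followed the others weakly. Over 18 lines, the Pearson correlation of the 28 pairs of members ran from 0.08 for SCG5 with CPE over a median of 0.62 to 0.99 for CHGA with CHGB. The 6 pairs over 0.9 were those among CHGA, CHGB, SCG3 and INSM1, and no pair with SCG5 exceeded 0.19. Over the 17 lines without NCIH716 the median was -0.04, with a range from -0.61 for SYP with INSM1 to 0.46 for CHGA with INSM1. SCG2 with CPE had 0.31 over these 17 lines, and SCG5 with CPE had -0.04. These values describe lines that share an array type and processing, and most members outside NCIH716 lay in the range of background, where values have no order.

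Of the other genes, those most like the mean profile of the members over 18 lines were SHC4 (r = 0.97), PRPH, MFAP4, HHIPL2, COL14A1, ST8SIA4, C16orf54, OLFM3, ANXA10 and ENPP2 (r = 0.96). PRPH, the intermediate filament peripherin of peripheral neurons, was 10.53 in NCIH716 and at most 4.98 in the other lines. ST8SIA4, which adds polysialic acid to the adhesion molecule NCAM1, was 7.90 in NCIH716 and at most 3.46 elsewhere, and the collagen COL14A1 was 12.70 in NCIH716 and at most 3.52 elsewhere. In all, 95 of 15142 genes had r over 0.9. With most members high in NCIH716, an r of this size rests mainly on that 1 array and says little of the other lines.

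Without NCIH716, over the other 17 lines, the gene most like CPE was NPW, which encodes the precursor of the secreted neuropeptide W (r = 0.87). NPW was 10.90 in NCIH716, against 9.59 in HCT116, 6.55 in RCM1 and 6.03 in COLO320HSR, and at most 4.13 in the other 14 lines. It thus had a clear signal in 3 of the 4 other lines with a clear signal of CPE, and in MDST8 it was 3.51. HERC5, an interferon-induced ligase (r = 0.81), and FES, a tyrosine kinase (r = 0.80), followed. SCG2 was most like EPOR, the erythropoietin receptor (r = 0.79), SLC29A4 (0.78) and OR51B4 (0.77), and SCG5 was most like the homeobox gene EN2 (0.84), the cobalamin carrier TCN2 (0.73) and GIMAP2 (0.73). SLC29A4 reached no more than 4.47 in any of the 17 lines, so that its likeness was found among values near background. TCN2 had a median of 3.63 and reached 4.97, and EN2 had a median of 3.10 and reached 5.43. EPOR had a median of 5.06 and reached 5.85. Each named gene was among the 3 most alike of all genes compared, so its r is high by choice.

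Further genes of the pathway were taken from lists. Of 9 measured genes of granule content and granule priming, 4 had a clear signal in NCIH716, a share near the 48.0% of all genes, and 2, VGF and SCGN, lay at least 3 log2 units above the median of the other lines, against 3.04% of the kept genes; the median difference of these 9 was -0.21. VGF, a granin-like precursor protein, was 9.29 in NCIH716 and 7.39 in SNUC1, and ran from 4.11 to 5.66 in the other 16 lines. SCGN, the calcium sensor secretagogin of endocrine cells, was 7.44 in NCIH716 and at most 3.70 elsewhere. Others were high outside NCIH716. PCSK1N, the precursor of the granin-like protein proSAAS, was 3.77 in NCIH716, and clear in HUTU80 (6.65) and CAR1 (5.28) alone. CADPS, which primes dense-core granules for release, was 3.36 in NCIH716, against 10.40 in SNUC1, 9.02 in MDST8 and 8.46 in LS180. PAM, which amidates peptide ends, was 8.95 in NCIH716 and above 4.92 in 16 of the other 17 lines, all but OUMS23 (3.81). QPCT, which forms pyroglutamate at peptide starts, was 2.94 in NCIH716 and clear in 8 other lines, up to 9.92 in SW948.

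Of 21 measured genes of vesicle docking and exocytosis, 12 had a clear signal in NCIH716, against 48.0% of all genes. In all, 6 lay at least 3 log2 units above the median of the other lines (SNAP25, STX1A, SYT1, SYT4, SV2A and UNC13A), against 3.04% of the kept genes, with a median difference of 0.93 over the 21. SYT4, a synaptotagmin, was 8.53 in NCIH716 and at most 3.69 elsewhere. SNAP25, a membrane fusion protein, was 6.96 in NCIH716, against 7.76 in MDST8 and 7.67 in COLO320HSR, and at most 3.94 in the other 15 lines. SV2A, a vesicle glycoprotein, had the same 3 lines, with 7.71 in NCIH716, against 8.59 in MDST8 and 9.48 in COLO320HSR, and at most 4.41 in the rest. SYT1, the calcium sensor of fast release, was 9.88 in NCIH716, against 10.99 in MDST8 and 9.23 in HCT116. CHGA, CHGB and SCG3 were at most 3.96 in MDST8, COLO320HSR and HCT116. CPE was clear in each of these lines, SCG2 in MDST8 and HCT116, and SCG5 in MDST8.

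Of 18 measured transcription factors listed for the endocrine lineage, 9 had a clear signal in NCIH716, a share near the 48.0% of all genes. The 9 include REST and HES1, which were clear in most other lines too. ISL1, RFX6, ATOH1 and HES6 lay at least 3 log2 units above the median of the other lines, against 3.04% of the kept genes. RFX6, a factor of endocrine cells of gut and pancreas, was 7.59 in NCIH716 and at most 3.53 elsewhere. ATOH1, which directs gut progenitors to secretory fates, was 8.56 in NCIH716 and at most 4.16, in COLO320HSR, elsewhere. ISL1, a homeobox factor of endocrine cells and neurons, was 9.36 in NCIH716 and at most 6.12, in LS513, elsewhere. INSM2, a relative of INSM1, was 5.93 in NCIH716 and at most 3.32 elsewhere. NEUROG3, which starts the endocrine programme in progenitors, was 3.19 in NCIH716 and below 3.90 in every line. PAX6 and NKX2-2 were high outside NCIH716. PAX6 was 3.64 in NCIH716 and clear in 7 other lines, up to 11.33 in HUTU80 and 7.79 in MDST8. NKX2-2 was 3.32 in NCIH716 and clear in HUTU80 (7.12) and MDST8 (5.87) alone. REST, a repressor of neuronal genes, was lowest in NCIH716 at 6.76, and ran from 7.32 in SW948 over a median of 7.79 to 8.67 in SW48 in the other lines.

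Of 16 measured hormone genes, 3 had a clear signal in NCIH716 (GCG, SST and NTS), against 48.0% of all genes, and 3 more in other lines only (CCK, GIP and CALCA); the median difference of the 16 was 0.01. GCG, the precursor of glucagon and of glucagon-like peptides, was 12.97 in NCIH716 and 12.94 in HUTU80, a difference below 0.38, and at most 3.99 in the other 16 lines. HUTU80, known as a line from the duodenum, had no clear signal of any measured granule member: CHGA was 3.23, CHGB 3.93, SCG2 3.78, SCG3 3.25, SCG5 3.46 and CPE 3.33. Other granule genes were clear in HUTU80, with PCSK1N at 6.65, VGF at 5.20 and PAM at 10.77. NTS, neurotensin, was 5.23 in NCIH716 and 9.07 in HUTU80, and SST, somatostatin, was 7.05 in NCIH716 and at most 3.61 elsewhere. CCK, cholecystokinin, was 3.13 in NCIH716, against 7.13 in MDST8 and 5.75 in CL40. These lines and SW948 had the highest SCG5 values, and CCK was 3.15 in SW948. PYY, a peptide made with GCG in hormone cells of the distal gut, was below 3.90 in every line.

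Of 10 neuronal and neuroendocrine surface and cytoplasmic genes, 8 had a clear signal in NCIH716, against 48.0% of all genes, and NCAM1, UCHL1, DLL3, GNG4, CRMP1 and STMN2 lay at least 3 log2 units above the median of the other lines, against 3.04% of the kept genes (median difference 3.82). STMN2, a microtubule regulator of neurons, was 10.22 in NCIH716 and at most 3.45 elsewhere. NCAM1 was 9.07 in NCIH716, against 7.76 in MDST8 and 6.60 in HUTU80. UCHL1 was 9.89 in NCIH716 and higher in COLO320HSR (12.17), HUTU80 (11.36) and CAR1 (10.89), none of which had a clear signal of CHGA, CHGB, SCG2, SCG3 or SCG5. CPE was clear in COLO320HSR (8.30), but not in HUTU80 (3.33) or CAR1 (4.25).

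**Figure D4:**
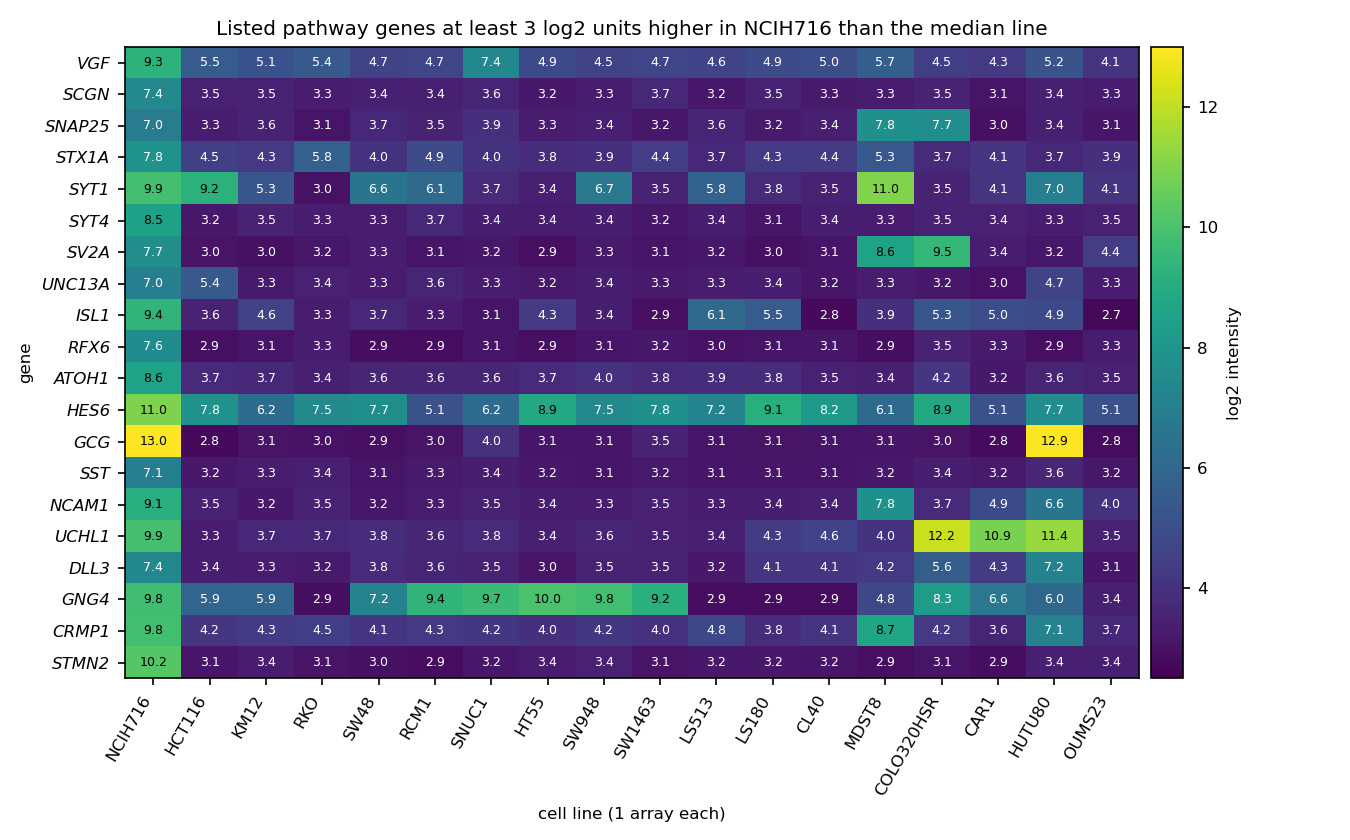
Log2 intensity, printed and coloured, of the 20 listed pathway genes that lay at least 3 log2 units above the median of the other lines in NCIH716 (rows), in each line (columns, NCIH716 at the left). SCGN, SYT4, RFX6, ATOH1, SST and STMN2 are bright in NCIH716 alone, SNAP25 and SV2A also in MDST8 and COLO320HSR, and GCG also in HUTU80.

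Markers of cell types were read to check the label. In NCIH716 the gut epithelial genes CDH17 (10.83), KRT18 (11.20) and EPCAM (9.19) were clear, while CDH1 was 3.67 and KRT20 4.87. The medians of the other lines were 9.26 for CDH17, 12.71 for KRT18 and 12.06 for EPCAM. Of 9 such genes, 7 exceeded 4.92, against 48.0% of all genes. The values of the 9 summed to 70.6, against 38.5 to 106 in the other lines, with a median of 86.1. Of 6 fibroblast genes, 2 were clear in NCIH716, COL3A1 (10.57) and LUM (10.57), against 48.0% of all genes, whereas DCN was 3.42 and COL1A1 4.57. The sum of the 6 was 36.5, against 19.9 to 42.8 in the other lines, with a median of 21.0 and the highest in HUTU80. Of 6 neuron and glia genes, 2 were clear in NCIH716, MAP2 (6.64) and MBP. MAP2 was clear in 5 other lines and higher in CAR1 (8.89) and CL40 (7.75). MBP was clear in 15 other lines, and NCIH716 minus their median, over all other lines, was -1.34 for this gene. RBFOX3, a nuclear marker of neurons, was 3.60 in NCIH716. The sum of the 6 was 27.7, against 20.8 to 31.0 in the other lines. No leukocyte, endothelial or tuft cell gene was clear in NCIH716 (0 of 4, 0 of 3 and 0 of 3), against 48.0% of all genes. The part of these genes in the results was not tested. Array medians lay between 3.65 and 3.69.

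The culture medium was the 1 grouping of lines that the labels gave. Each medium holds different lines, so that line and medium cannot be told apart for any single line. With limma over 15150 genes, 0.0% were called at an adjusted p under 0.05 between 8 lines in RPMI-1640 and 10 in DMEM/F-12, none of the members among them; 391 genes had an unadjusted p under 0.05. CPE had the largest difference of the members. It had a median of 6.87 in RPMI-1640 lines, from 2.97 to 11.35, and a median of 3.36 in DMEM/F-12 lines, from 3.07 to 4.25, so the groups overlapped. The difference was 3.08 log2 units (SE 0.85, 95% interval 1.29 to 4.88, limma unadjusted p = 0.00197, adjusted p = 0.999), with a clear signal in 5 of 8 lines in RPMI-1640 and 0 of 10 in DMEM/F-12. Without NCIH716 it was 2.40 (SE 0.68, limma adjusted p = 0.999).

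SCG2 had a median of 4.57 in RPMI-1640 lines, from 3.26 to 10.66, and of 3.70 in DMEM/F-12 lines, from 3.57 to 4.06. A clear signal was measured in 4 of 8 lines in RPMI-1640 and 0 of 10 in DMEM/F-12, and the difference was 1.79 (SE 0.81, limma adjusted p = 0.999). Without NCIH716 it was 1.06 (95% interval -0.15 to 2.27, limma adjusted p = 0.999). SCG5 was clear in 2 lines of each medium, and its difference was 0.10 (95% interval -1.51 to 1.72, limma adjusted p = 0.999). For CHGA, CHGB, SCG3 and INSM1 the differences ran from 0.53 to 0.97 and rested on NCIH716, since none of these genes was above 4.92 in any other line. Set against the other 7 lines in RPMI-1640 alone, NCIH716 stood 6.67 log2 units above their median for CHGA, 8.09 for CHGB, 7.20 for SCG3, 7.17 for SCG2, 5.99 for INSM1, 5.40 for CPE, 1.87 for SCG5 and 0.44 for SYP.

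**Figure D5:**
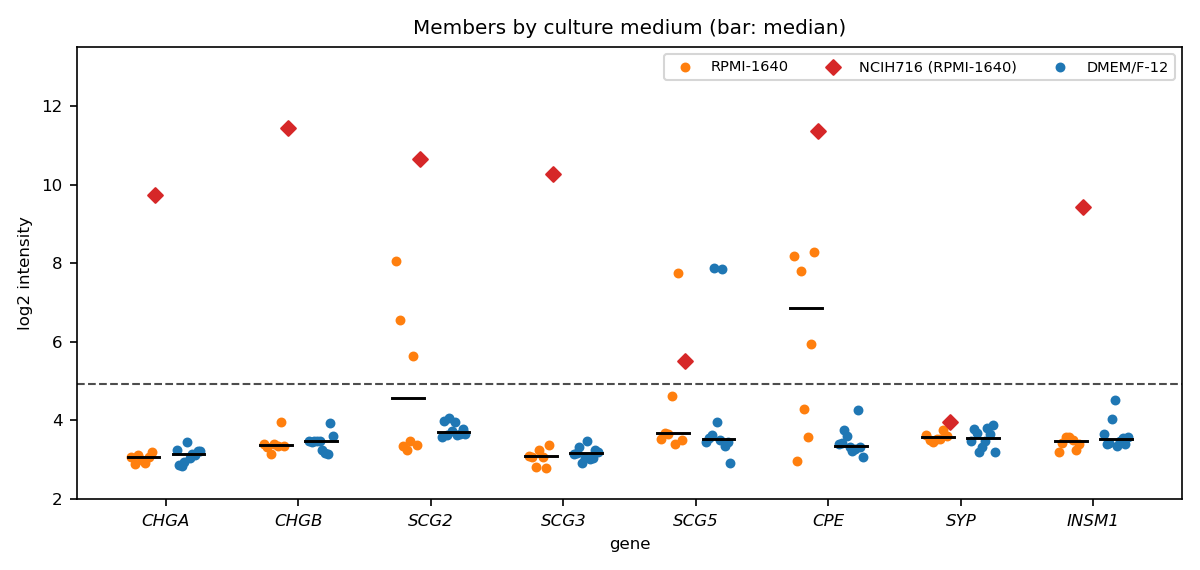
Log2 intensity of the 8 measured members by culture medium, 1 point per line (8 lines in RPMI-1640, left of each pair, and 10 in DMEM/F-12), with the median as a bar, NCIH716 as a red diamond and 4.92 as a dashed line. The CPE and SCG2 values over the dashed line are all in RPMI-1640, and those of SCG5 are in both media.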

How the data were processed

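Total RNA of 18 cell lines was measured on 1 array each. The deposited values are log2 intensities per probe set; the submitters' processing notes name RMA and affy, with no version, and the values were used as deposited, without further normalization. Of 54613 probe sets, 40914 named 1 gene in the array annotation, 864 several and 12835 none; symbols were updated through Entrez IDs for 40858 of them, and of several probe sets for a gene the one highest on average was kept. No probe set was paired with NEUROD1 or PCSK1, which were not analysed here. Background was the 95th percentile (3.90) of the values of 54 probe sets of 44 tissue-restricted genes, of which 5 probe sets exceeded 6 in some line and may hold signal. Genes above it in at least 1 line were kept (15150).

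The media were compared with limma 3.58.1 (R 4.3.3, eBayes with trend, Benjamini-Hochberg over all kept genes). The fit was run on simulated data with known shifts, drawn as independent normal values. It called 21 of 50 genes shifted by 1 log2 unit, 45 of 50 shifted by 3 and 11 of 14950 unshifted. Members with signal in some lines and none in others are not of this form. The simulation therefore does not show what the fit could detect for them. Lines were otherwise compared without a test, as 1 array a line allows none. For 7813 genes, the median SD between 2 probe sets was 0.38 log2 units, used as a yardstick for a technical difference. It compares probe sets on the same arrays, so it leaves out differences between cultures, RNA preparations and arrays. The members and lists were chosen with earlier results of these data known. Genes named were the members, the listed genes, the 10 genes most like the members' mean and 3 per member with signal in at least 3 other lines; the flanking genes were added later. The alternatives were other background levels, probe set choices, scalings, thresholds and limma settings, and leaving out each line. Python 3.11.15, numpy 2.4.6 and pandas 2.3.3 were used.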

Additional observations from a re-analysis of the deposited data

How the results depend on the processing

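The number of members at least 3 log2 units above the median in NCIH716 was 6 under each alternative that recomputed it. The second probe set of INSM1 taken alone, 2.74 above the median, would not have passed. With the mean of all probe sets, INSM1 stood 4.35 and CPE 7.22 above the median. The number of members above background outside NCIH716 depended on the level: at the 99th percentile and at 6 log2 units it was 3 in place of 5, with 10 and 8 values above the level in place of 21. The count of members at least the chosen gap above every other line, which does not require that other lines lack a signal, ran from 4 to 6. No member was called between the media in any of the 24 limma settings, with adjusted p between 0.990 and 1.00. The differences between RPMI-1640 and DMEM/F-12 lines changed sign for some members when 1 line was left out; they ran from -0.069 to 0.91 for CHGA, -0.031 to 1.16 for CHGB, -0.23 to 0.66 for INSM1, -0.092 to 0.98 for SCG3 and -0.37 to 0.49 for SCG5, with the negative values of CHGA, CHGB, INSM1 and SCG3 in the run without NCIH716, where all their values lie under 4.92 and the sign carries no information. For SCG5 the difference was -0.37 without MDST8, -0.048 without NCIH716, -0.0085 without CAR1 and -0.057 without OUMS23. No paired analysis was possible because each line was measured once. Values under 4.92 lie too near the level of tissue-restricted genes to be ordered, and all values of SYP are of this kind.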

Other observations

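A list of 7 further processing enzymes was read beside CPE. CPD, the carboxypeptidase of the trans-Golgi network found in most cells, was 9.54 in NCIH716 and between 8.06 and 9.98 in the other lines. PCSK7, a convertase of the constitutive pathway, was 6.10 in NCIH716 and between 5.93 and 8.32 in the others, and PCSK5 was 2.92 in NCIH716, under background, while 13 other lines had a clear signal. None of the 7 genes of this list lay 3 log2 units above or below the median in NCIH716. Of the 15150 kept genes, 460 lay that far above and 268 that far below. With shares this small, a count of none among 7 genes says little about them. PCSK5 came nearest to the limit, with a difference of -2.76. Among 8 genes of amine synthesis, transport and breakdown, none lay 3 log2 units above the median in NCIH716, against 3.04% of the kept genes. DDC and MAOA had a clear signal in NCIH716, 2 of 8 against 48.0% of all genes. DDC was 11.20 there and up to 11.25, in SW948, elsewhere. MAOA, which breaks amines down, was 8.87 in NCIH716 and up to 9.66, in SW1463, elsewhere. Each was clear in 10 other lines. TPH1, the first enzyme of serotonin synthesis in the gut, was below 3.90 in every line, and the vesicular monoamine carrier SLC18A2 was 4.12 in NCIH716 and at most 5.02, in SW1463.

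The 32 genes that flank the 8 measured members on the chromosome, 2 on each side, were read as well. Their median difference between NCIH716 and the other lines was 0.05 log2 units. Of them, 2 lay at least 3 above the median of the other lines and 1 at least 3 below. Of the 15150 kept genes, 460 and 268 did so. Both genes next to SCG3 on 1 side were highest in NCIH716: GLDN was 7.08 there, against a median of 3.22 in the other lines, and DMXL2, which acts in vesicle acidification, was 10.08, against a median of 7.34. On its other side LYSMD2 and TMOD2 lay 0.76 and 1.42 above the median and were highest in SW48 and MDST8. GREM1, a BMP antagonist that neighbours SCG5, was 6.69 in NCIH716, against a median of 3.33 in the other lines, and was highest in LS180 (10.10), where SCG5 was 3.51. The neighbours of CHGA and CHGB lay between -0.41 and 1.18. These genes were chosen after the values were seen.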
